A study of Mus musculus with 12 samples.

Results

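Basophils and mast cells were sought in single-cell transcriptomes of whole mouse liver with a gate on 6 genes: Mcpt8 and Prss34, which encode granule proteases of basophils, Cpa3, a protease shared by basophils and mast cells, Ms4a2 and Fcer1a, the beta and alpha chains of the high-affinity IgE receptor, and Gata2, a transcription factor of both lineages. A cell barcode entered the gate when at least 3 of the 6 genes had at least 1 UMI (unique molecular identifier, 1 counted RNA molecule), among barcodes of 1000 or more UMIs with no more than 15% of them from mitochondrial genes. The gate held 606 of 184493 passing barcodes (0.328%) from 9 libraries, and 183887 passing barcodes lay outside it. Because the gate uses the 6 genes, their levels inside it are a description and carry no test.

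The livers came from embryos at E16.5 and pups at P3 of matings between Jag1Ndr/+ parents, and were Jag1+/+, Jag1Ndr/+ or Jag1Ndr/Ndr. JAG1 is a Notch ligand, and Ndr (Nodder) is a germline allele of its gene that all cells of a carrier hold, so no promoter or Cre restricts it to a cell type. Jaundice served to choose the homozygous P3 pups, and the labels state 2 individuals for each genotype and stage. Of 12 labelled samples, 9 libraries could be told apart. One E16.5 matrix was present under the labels of Jag1+/+ replicate 2 and of Jag1Ndr/+ replicate 2, and was counted once, as the shared library. The other 4 were Jag1+/+ replicate 1, Jag1Ndr/+ replicate 1 and Jag1Ndr/Ndr replicates 1 and 2. At P3, library A (labelled Jag1+/+ replicate 1) and library B (labelled Jag1+/+ replicate 2) shared most of their barcodes with matrices under another genotype label and entered no genotype comparison. Library C was Jag1Ndr/Ndr replicate 1 minus every barcode of library A, and library D was Jag1Ndr/+ replicate 1. No gated barcode sequence was shared between the gates of 2 libraries (0 shared).

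Dissociated cells had passed magnetic removal of dead cells before 10x droplet capture. Outside the gate, summed erythroid markers ranged from 161035 to 546760 CPM and hepatocyte markers from 968 to 7228 CPM over the 9 libraries, so erythroid transcripts outweighed hepatocyte transcripts in these liver libraries. Library totals ranged from 75745209 to 258642858 UMIs. The gated barcodes of a library summed to 294768 to 2023641 UMIs, with a median of 21852, 11769.5, 14463, 13026 and 17995.5 UMIs per gated barcode in the E16.5 libraries (in the order Jag1+/+ replicate 1, shared library, Jag1Ndr/+ replicate 1, Jag1Ndr/Ndr replicates 1 and 2, used throughout). In P3 libraries A to D the medians were 12983, 7816, 8266 and 5825.5. Every library's gated barcodes were deeper than its other passing barcodes, by 1.41 to 2.90 times in the median. Levels below are CPM: a gene's UMIs over the summed barcodes of a library, scaled to the same total in every library. Stage values count only the 22519 genes listed at both stages, so they differ slightly from the levels given elsewhere.

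Basophils and mast cells are the granulocytes that carry the high-affinity IgE receptor. When antigen links receptor-bound IgE, the kinases LYN and SYK and the adaptors LAT and LCP2 relay the signal, and the cell releases histamine, made by the enzyme HDC, together with lipid mediators, proteases and cytokines such as IL-4 and IL-13. Basophils arise from progenitors that express GATA2, respond to IL-3 and circulate in blood, whereas mast cells depend on the receptor KIT, settle in tissues and fill their granules with chymases and tryptases. Fetal liver is a main site of blood cell formation before birth.

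GATA factors bind the sequence core GATA, so the 250 bases before the start site of the marker genes are shown with AGATAA and TGATAA, and their reverse complements TTATCT and TTATCA, in capitals. Sequences are from RefSeq on GRCm38.p6, read 5′ to 3′ along the gene. The first 4 belong to protease and IgE receptor genes of the gate and the last to Cd200r3, a surface receptor gene outside the rule that had almost no signal in other barcodes.
Cpa3, chr3:20242182-20242431, minus strand: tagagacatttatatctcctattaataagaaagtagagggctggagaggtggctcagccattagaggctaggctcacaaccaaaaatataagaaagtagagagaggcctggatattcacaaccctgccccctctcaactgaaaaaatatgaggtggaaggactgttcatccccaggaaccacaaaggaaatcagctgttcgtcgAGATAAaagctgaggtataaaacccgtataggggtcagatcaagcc
Mcpt8, chr14:56085198-56085447, minus strand: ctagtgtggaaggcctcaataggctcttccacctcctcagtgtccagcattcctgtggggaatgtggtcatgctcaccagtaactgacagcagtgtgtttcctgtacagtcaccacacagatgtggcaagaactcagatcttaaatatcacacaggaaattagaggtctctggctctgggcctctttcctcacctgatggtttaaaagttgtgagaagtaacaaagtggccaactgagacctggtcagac
Prss34, chr17:25298144-25298393, plus strand: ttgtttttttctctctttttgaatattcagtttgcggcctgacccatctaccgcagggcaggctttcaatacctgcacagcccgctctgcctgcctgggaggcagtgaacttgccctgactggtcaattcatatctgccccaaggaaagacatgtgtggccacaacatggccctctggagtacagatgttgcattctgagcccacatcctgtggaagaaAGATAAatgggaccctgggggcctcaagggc
Ms4a2, chr19:11623720-11623969, minus strand: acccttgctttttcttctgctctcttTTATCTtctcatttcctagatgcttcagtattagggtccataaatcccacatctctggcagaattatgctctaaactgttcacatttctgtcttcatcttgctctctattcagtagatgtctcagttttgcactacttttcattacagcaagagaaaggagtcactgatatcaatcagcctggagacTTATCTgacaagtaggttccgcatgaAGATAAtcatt
Cd200r3, chr16:44943428-44943677, plus strand: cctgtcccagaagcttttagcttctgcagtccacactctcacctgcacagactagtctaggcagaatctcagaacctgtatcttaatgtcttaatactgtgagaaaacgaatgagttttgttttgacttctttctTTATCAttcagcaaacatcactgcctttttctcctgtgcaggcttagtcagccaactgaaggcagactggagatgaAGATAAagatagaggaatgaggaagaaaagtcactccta
Among windows of this length over all genes, 16.6% of 32851 held at least 1 of these letter strings on either strand (9.99% for AGATAA and 7.94% for TGATAA). Of the 6 gate markers, 4 held one, in order Cpa3, Prss34, Ms4a2 and Fcer1a, while the windows of Mcpt8 and Gata2 held none. Of the 18 leading genes with a window, 3 did (Cd200r3, Il6 and Lilr4b). The capitals nearest the start site begin at position −46 in Cpa3, −31 in Prss34, −11 in Ms4a2 and −39 in Cd200r3. Such a match of letters is a description, not a binding site.

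The first question was how common gated barcodes were. At E16.5 they made up 0.185% of passing barcodes (35 of 18931) in Jag1+/+ replicate 1, 0.708% (146 of 20620) in the shared library, 0.145% (42 of 29034) in Jag1Ndr/+ replicate 1, and 0.370% (68 of 18357) and 0.151% (40 of 26434) in the 2 Jag1Ndr/Ndr libraries. At P3 the share was 0.535% (115 of 21504), 0.245% (43 of 17553), 0.459% (69 of 15024) and 0.282% (48 of 17036) in libraries A to D. The shared library stood above the other 8, and its exact 95% binomial interval, which covers counting error only, was 0.598% to 0.832%. The mean was 0.312% ± 0.240 (SD, n = 5) at E16.5 and 0.380% ± 0.139 (SD, n = 4) at P3, and the ranges overlapped. The log2 difference of 0.51, P3 over E16.5, gave p = 0.381 in a two-sided exact permutation test, whose smallest possible value was 0.0159. Thinning every barcode to 1000 UMIs gave all the same depth but kept the same passing barcodes. The E16.5 shares then ranged from 0.0634% to 0.412% and the P3 shares from 0.160% to 0.300% (log2 difference 0.96, exact permutation p = 0.143). Libraries A, B and D had passing barcodes under 2000 UMIs, whereas library C and the E16.5 libraries did not. Among barcodes of at least 2000 UMIs the log2 difference was 0.61 (exact permutation p = 0.286). Homozygous livers at E16.5 had 0.261% ± 0.155 (SD, n = 2) against 0.346% ± 0.314 (SD, n = 3) in the other 3. The exact permutation p was 1, in a design that cannot go below 0.2. That difference of −0.17 on the log2 scale had no stable direction: it was 0.53 without the shared library and 0.47 without Jag1Ndr/Ndr replicate 2.

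**Figure D1:**
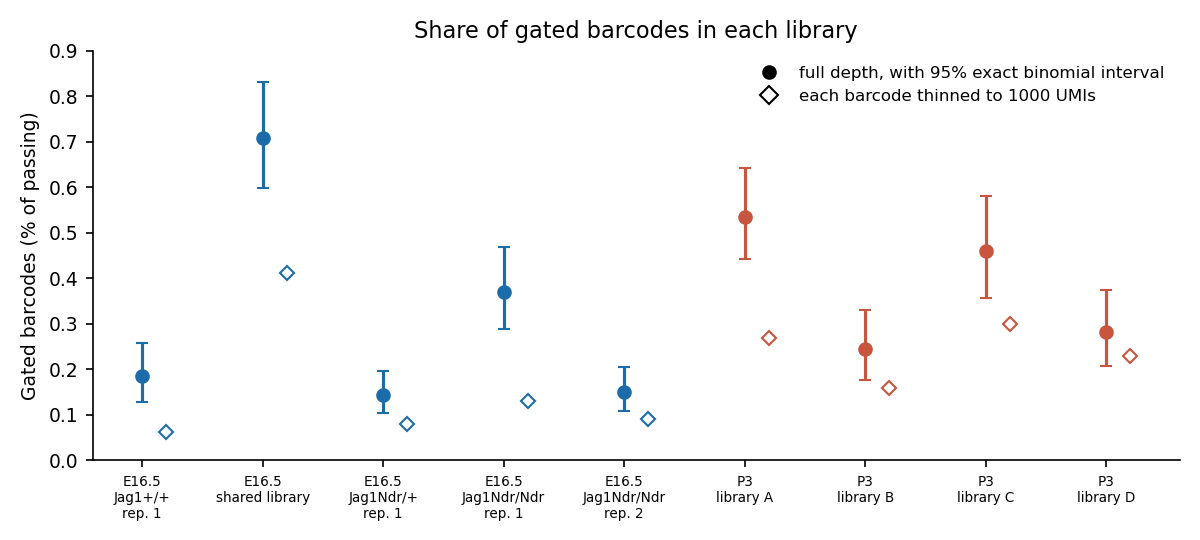
Share of gated barcodes among passing barcodes (y axis, percent) in each of the 9 libraries (x axis); circles are full depth with exact 95% binomial intervals, and diamonds are shares with every barcode thinned to 1000 UMIs. The shared E16.5 library is the highest at 0.708%, and the ranges of the 2 stages overlap.

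Most gated barcodes carried the basophil protease pair. Mcpt8 was detected in 77.1% to 97.9% of gated barcodes per library and in 0.210% to 0.972% of the others, and Prss34 in 60.0% to 91.3% against 0.0328% to 1.14%. Gated barcodes held 91.9% to 98.0% of all Mcpt8 UMIs and 96.0% to 99.2% of all Prss34 UMIs of their libraries. Cpa3 was detected in 89.6% to 100% of gated barcodes, Ms4a2 in 85.7% to 97.7% and Gata2 in 95.2% to 100%. Their share of the library's UMIs was lower, 53.0% to 87.0% for Cpa3 and 45.8% to 75.1% for Gata2, so more of their UMIs lay outside the gate. Fcer1a was the sparse marker, with a UMI in only 4.17% to 37.1% of gated barcodes and in at most 0.0187% of the others. By number of markers, 101 barcodes had exactly 3, 115 had 4, 297 had 5 and 93 had all 6. Just outside the gate lay 298 barcodes with 2 markers. Barcodes with 3 markers carried a median of 7 to 20 marker UMIs per library, and those with 2 carried 2 to 6.

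Beyond the rule, the 25 genes with the largest ratio of gated to other barcodes are again a description, since the same cells were chosen by their transcripts. Ifitm1, an interferon-inducible membrane protein gene abundant in basophils, led with 2942 to 6751 CPM in the gate and 11.5 to 72.2 CPM outside. Cd200r3, an activating receptor of basophils and mast cells, had 261 to 533 CPM in the gate and 0.0994 to 0.316 CPM outside. Hdc, the histamine-forming enzyme, had 420 to 1084 CPM against 4.52 to 10.6 CPM. The chemokine genes Ccl3 (510 to 2542 CPM against 5.74 to 35.2 CPM), Ccl4 and Ccl9, the tetraspanin gene Cd63, which marks degranulation, and Srgn, the granule proteoglycan, were also among the first 11. The 25 leading genes also included Il6, Osm, Csf1 and Hgf, which encode secreted factors, Ptgs2, the inducible cyclooxygenase gene, Cyp11a1, the first enzyme of steroid synthesis, and Runx1, a blood cell transcription factor gene. The ranking used the median over 9 libraries, 5 of them from E16.5. Ptgs2 had 200 to 346 CPM in the gate at E16.5 but 0 to 21.7 CPM at P3. Its lowest ratio in a library, with 20 CPM added to both sides, was 0.990. Il6, Osm and Tnfaip3 were also lower in every P3 gate than in every E16.5 gate.

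As a background for counts over gene lists, 17.9% of 19054 genes with a UMI, and 44.6% of the 6795 genes with enough UMIs to be tested between the stages, were higher in the gate in all 9 libraries. These counts are a description, since the gate chose the barcodes. Of 15 genes of IgE receptor signalling, 12 were higher in the gate in all 9 libraries, among them Fcer1g, the shared signalling chain (649 to 1319 CPM against 176 to 611 CPM), and Lat2, an adaptor (83.5 to 172 CPM against 1.43 to 9.15 CPM). Lyn, Syk and Lcp2 were closer to the other barcodes: the median over libraries was 56.6 CPM against 53.2 CPM for Lyn and 37.3 CPM against 38.0 CPM for Syk. Among 18 basophil surface genes 14 were higher in all 9 libraries, and Ptgdr2, which encodes a prostaglandin D2 receptor, was at 0 in the gate in all 9. Of 16 cytokine and chemokine genes 10 were higher in all 9, as were 10 of 18 receptor genes (1 was higher in none), 11 of 24 transcription factor genes (4 higher in none) and 4 of 14 granule protease and proteoglycan genes (Mcpt1 and Mcpt9 were higher in none). Il4 reached 157 CPM and Il13 23.9 CPM, against at most 0.204 CPM and 0.0304 CPM outside, whereas Il3, Il5 and Il9 had 0 UMIs in the gate. Lipid mediator genes were split: Alox5, Alox5ap and Alox15 were abundant (Alox15 at 55.2 to 117 CPM against 0.0881 to 0.2003 CPM), but Ltc4s, which makes leukotriene C4, and Hpgds, which makes prostaglandin D2, had medians of 0.988 CPM and 2.47 CPM. The receptor genes Il3ra, Csf2rb, Il1rl1 (the IL-33 receptor) and Crlf2 (the TSLP receptor) were higher in the gate than outside in all libraries. Summed G2/M genes had 4081 to 5669 CPM in the gate and 3028 to 5223 CPM outside. Of these, Mki67, a proliferation marker, had 380 to 680 CPM in the gate and 342 to 1174 CPM outside.

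**Figure D2:**
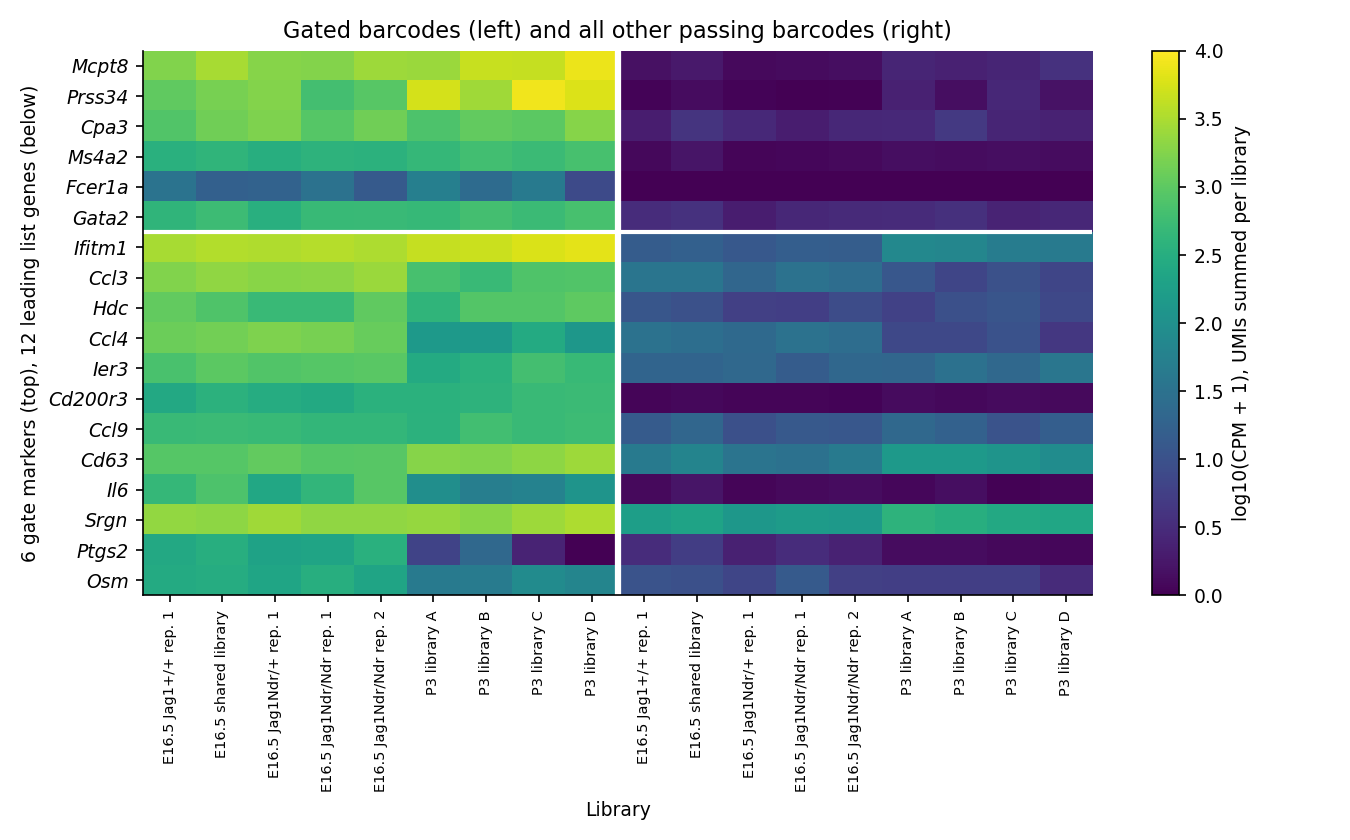
Heat map of log10(CPM + 1), from UMIs summed per library, for the 6 gate markers and 12 leading list genes (rows) in gated barcodes (left columns) and all other passing barcodes (right columns) of the 9 libraries. Cd200r3 and Il6 show signal on the left and almost none on the right.

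Mast cells, the other part of the gate's name, were marked by only 3 gated barcodes. A set of 9 genes of mast cell proteases and receptors (Cma1, Mcpt4, Tpsb2, Tpsab1, Mrgprb1, Mrgprb2, Mcpt1, Mcpt2 and Mcpt9) was used, and at least 2 of them were detected in 3 gated barcodes and in 41 barcodes outside the gate. The gated ones lay in E16.5 Jag1+/+ replicate 1, E16.5 Jag1Ndr/Ndr replicate 2 and P3 library B. The barcode of library B held 338 UMIs of Cma1, a chymase, 158 of Tpsb2, a tryptase, and 74 of Cpa3. These single barcodes held most Cma1 UMIs of the gate in their 3 libraries, and the gate's Cma1 level was 199, 1.48, 2.90, 0.772 and 269 CPM at E16.5 and 2.40, 734, 7.41 and 6.79 CPM in libraries A to D. Outside the gate, 40 of the 41 came from P3 (10, 21, 3 and 6 in libraries A to D) and 1 from the shared E16.5 library. One of them, in library B, had 178 UMIs of Tpsb2, 198 of Cma1, 244 of Mcpt4 and 101 of Cpa3, with 0 of Mcpt8 and Prss34, and so only 2 gate markers. Others held few such UMIs. A barcode of library A with 13070 UMIs had 1 of Tpsab1, 1 of Cma1 and 0 of Tpsb2, Mcpt4 and Cpa3. Mcpt1, Mcpt9, Mrgprb1 and Mrgprb2 were at 0 in the gate in all 9 libraries. Most gated barcodes are thus described as basophil-marker barcodes, and those with neither Mcpt8 nor Prss34 are described apart below.

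Detection of Mcpt8 and Prss34 divided the gated barcodes into 430 with both genes, 122 with 1 of the 2 and 54 with neither, all of which entered through Cpa3, Ms4a2 and Gata2. Barcodes with both made up 54.3% to 74.0% of the gate in E16.5 libraries and 60.5% to 84.1% in P3 libraries. At E16.5 the median depth per library was 11133 to 19082 UMIs for barcodes with both, 19988 to 26024 UMIs for those with 1 and 12436 to 33753 UMIs for those with neither. At P3 it was 5825.5 to 12457, 3980.5 to 13804 and 5340 to 10592.5 UMIs, so depth differed between the subsets. Since the subsets were drawn within the gate by 2 of its own genes, the following levels are descriptions, given as the median over 9 libraries.

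Barcodes with neither protease carried more progenitor transcripts. Kit, the stem cell factor receptor, was detected at E16.5 in 28.6% of barcodes with both, 72.5% of those with 1 and 91.4% of those with neither, and at P3 in 13.8%, 35.8% and 63.2%. Outside the gate it was detected in 8.43% of barcodes at E16.5 and 7.44% at P3. Cd34, a surface protein of haematopoietic progenitors, was detected in 12.3%, 55.1% and 48.6% at E16.5 and in 10.3%, 30.2% and 42.1% at P3, so the neither group was not the highest at E16.5. Outside the gate it was detected in 3.04% and 4.45%. As levels, Kit had medians of 27.7, 77.2 and 134 CPM in the same order and was higher in the neither group than in the both group in 8 of 9 libraries. Cd34 (14.8, 88.1 and 99.5 CPM) and Sox4, a progenitor transcription factor gene (33.0, 110.3 and 293 CPM), did so in 9 of 9 libraries. Myb, another progenitor factor gene, had 90.2, 307 and 405 CPM and did so in 8 of 9. Gata1, an erythroid, mast cell and megakaryocyte factor gene, had 49.2, 44.4 and 94.5 CPM, and Slc18a2, which loads histamine into granules, had 41.0, 52.1 and 110 CPM, each with the neither group above the both group in 9 of 9. Kit and Slc18a2 also belong to a list of 13 mast cell markers. Its summed level had a median of 136, 187 and 350 CPM in the same order over the E16.5 libraries. Over the P3 libraries it was 64.3, 90.8 and 312 CPM. These sums include Kit and Slc18a2 themselves. At least 2 of the 9 mast cell protease and receptor genes were detected in only 1 of the 35 neither barcodes at E16.5. At P3 that count was 0 of 19. Whether the neither group belongs to the mast cell lineage was not tested.

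Effector genes ran the other way in 9 of 9 libraries. Cd200r3 had medians of 514, 91.2 and 4.60 CPM in barcodes with both, 1 and neither. Il4 had 112, 35.1 and 14.6 CPM, Ccl3 had 2853, 760 and 18.3 CPM, and Alox15, a lipoxygenase, had 141, 28.8 and 0 CPM. Hdc differed less, with 952, 485 and 375 CPM. Summed G2/M genes had 4611 to 6160 CPM in barcodes with both and 2620 to 5213 CPM in those with neither at E16.5. At P3 they had 4612 to 6410 CPM and 1100.3 to 4579 CPM, without overlap. The P3 neither group held only 1 to 9 barcodes per library.

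**Figure D3:**
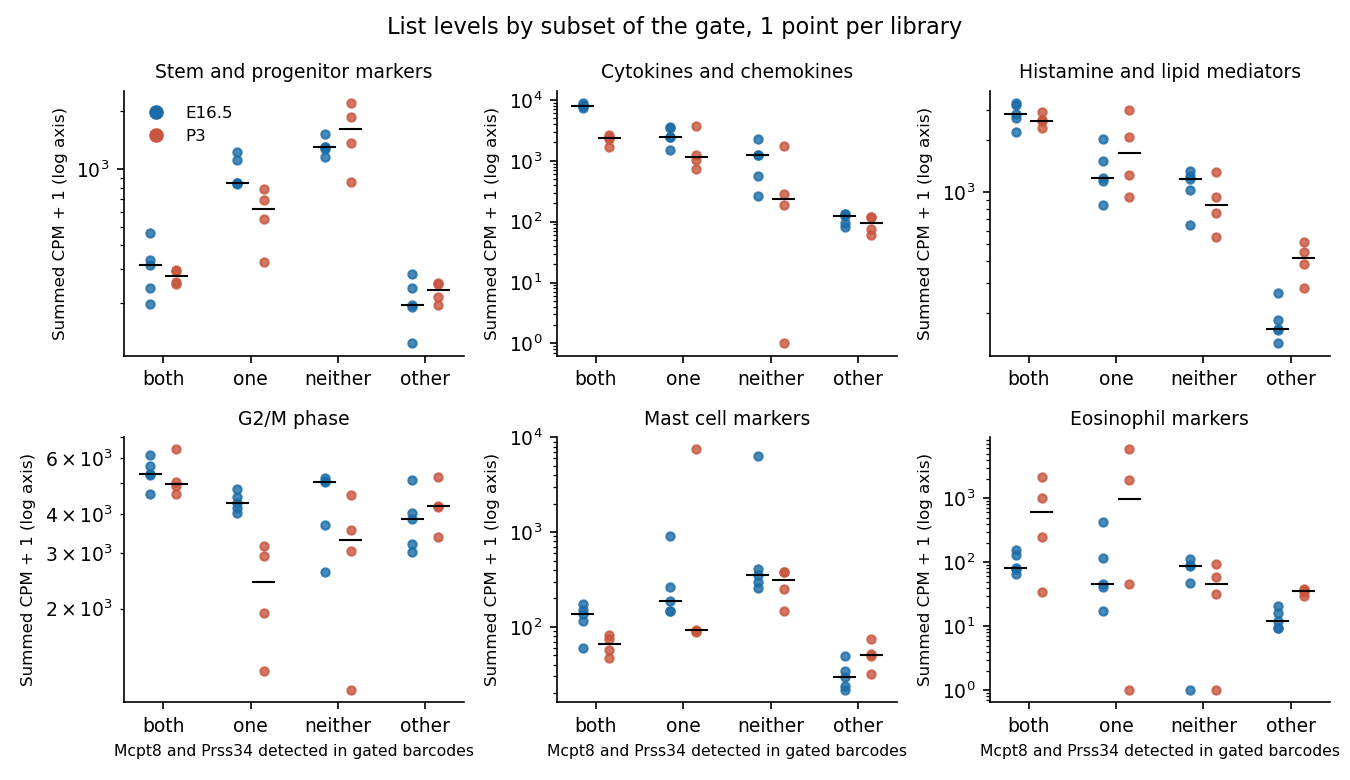
Summed CPM + 1 (log axes) of 6 gene lists in gated barcodes with both, one or neither of Mcpt8 and Prss34, and in other passing barcodes; each point is 1 library and lines are medians. Stem and progenitor genes are highest where neither protease was detected, and cytokine genes where both were.

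High levels of 2 eosinophil transcripts were found in the gate in P3 libraries A, C and D. Prg2, encoding eosinophil major basic protein, had 1.17 to 8.71 CPM in the gate at E16.5 and 1427, 0, 973 and 1428 CPM in P3 libraries A to D. At most 7.83% of a library's gated barcodes had a Prg2 UMI. Epx, eosinophil peroxidase, had 3.55, 3.00, 14.7, 0 and 1.44 CPM at E16.5 and 77.5, 0, 28.2 and 187 CPM at P3, so library B was as low as the E16.5 libraries. The list of 9 eosinophil genes did not move one way. In the stage test described below 3 of them were tested: Epx was higher at P3, Siglecf lower (log2 change −0.70) and Prg3 did not pass. Siglecf missed the threshold in 12 of 22 alternatives. At least 2 eosinophil genes were detected in gated barcodes of both stages: 31, 8 and 6 E16.5 barcodes with both, 1 and neither of the basophil proteases, and 24, 9 and 0 at P3. The level was distributed otherwise. Pooled over the P3 libraries, the summed list had 614, 4216 and 44.3 CPM in the same order. Per library it ranged from 33.8 to 2180 CPM with both and from 0 to 5808 CPM with 1. Epx was not tested among barcodes with both proteases. Whether these barcodes hold more than 1 cell was not tested. The doublet caller Scrublet marked 0% to 14.8% of gated barcodes per library, beside 3.67% to 33.4% of all passing barcodes. In E16.5 Jag1Ndr/Ndr replicate 1 its automatic threshold marked 0%, and the top 5% of scores was used instead.

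The next comparison was between stages, P3 (n = 4) against E16.5 (n = 5), with edgeR's quasi-likelihood test on gated UMIs summed per library and Benjamini-Hochberg adjustment. It does not isolate age. Only E16.5 tissue was treated with TrypLE, and the stages also differed in gene list, software version and depth, so these cannot be told apart from age. Genotypes were mixed within each stage. Nothing in the labels says whether replicates came from separate litters, and the p-values measure the spread between these libraries. Of 6795 genes tested, 2064 (30.4%) passed an adjusted p of 0.05, with 1028 (15.1%) higher and 1036 (15.2%) lower at P3. The count was 1416 without the shared library and library A, and 1320 with only libraries C and D at P3. Stage also changed the barcodes outside the gate, where 7849 of 14493 genes passed (54.2%), and 1747 of the 2064 were called there too. For this reason the difference between the 2 changes was tested in one model: 354 of 6795 genes passed (5.21%), 3.33% upward and 1.88% downward. The other barcodes are a mixture of cell types that also differed between the stages. Their summed erythroid markers had a median of 452439 CPM at E16.5 and 224785 CPM at P3, and their neutrophil markers 22754 and 58014 CPM. The part of this mixture in the differences was not tested. Levels in the next paragraphs are CPM per library, changes are log2 fold changes of P3 over E16.5, and adjusted p-values are those of edgeR. The standard error (SE) given with a change was derived from the test, here and for the genotypes. It is the size of the change divided by the square root of edgeR's F statistic.

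Secreted mediators were mostly lower at P3. Of 16 cytokine and chemokine genes 11 were tested, and 8 were lower and 1 higher at P3, beside 15.2% and 15.1% of all genes, with a median change of −1.69 beside 0.01 over all genes tested. Il4, the type 2 cytokine gene (chr11:53602982-53618669, GRCm38, minus strand), had 91.1, 123, 123, 114 and 159 CPM at E16.5 and 13.2, 15.2, 7.41 and 27.2 CPM at P3. The groups did not overlap, as for 24.9% of all genes tested, and the change was −3.22 ± 0.28 (SE, adjusted p = 1.76e-06). Ccl4, a chemokine gene (chr11:83662584-83664683, plus strand), had 1286, 1431, 1709, 1552 and 1207 CPM at E16.5 and 139, 139, 277 and 132 CPM at P3 (−3.17 ± 0.24, adjusted p = 9.39e-07). Its neighbour Ccl3 (chr11:83647844-83649355, minus strand) fell less, from 1736, 2181, 1991, 2026 and 2576 CPM to 686, 510.5, 796 and 831 CPM (−1.69 ± 0.18, adjusted p = 1.41e-05). Il6 (chr5:30013114-30019981, plus strand), an inflammatory cytokine gene, had 464, 771, 256, 429 and 941 CPM and then 93.1, 49.96, 59.3 and 115 CPM (−2.96 ± 0.35, adjusted p = 3.34e-05). All 5 E16.5 libraries were above all 4 P3 libraries for these genes. The other barcodes also fell in Il4 (−2.30), Il6 (−1.34), Ccl3 (−2.49) and Ccl4 (−2.78), and the differences between gated and other barcodes did not pass (adjusted p of 0.354, 0.058, 0.051 and 0.304). Outside the gate Il6 had only 0.0608 to 0.694 CPM, and Il4 was also near the floor, as given above. Ccl3 had 5.74 to 35.2 CPM and Ccl4 3.38 to 31.7 CPM there. The source of these UMIs was not tested.

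Tnf, which encodes tumour necrosis factor, moved against the summed other barcodes. Its gated level (chr17:35199381-35202007, minus strand) was 68.7, 68.6, 39.7, 86.8 and 81.8 CPM at E16.5 and 12.0, 36.9, 23.7 and 33.9 CPM at P3. The lowest E16.5 library lay just above the highest P3 library, and the change was −1.68 ± 0.30 (adjusted p = 0.000948). In the other barcodes it was 1.08, and the difference of −2.86 passed (adjusted p = 0.00103). Osm, which encodes the cytokine oncostatin M, fell by 2.34 ± 0.20 (adjusted p = 1.47e-06), beside −1.72 in the other barcodes. Cxcl2, a neutrophil chemokine gene, fell by 3.28 ± 0.62 (adjusted p = 0.00142) with overlapping groups, since library B had 76.0 CPM beside 69.8 CPM in E16.5 Jag1+/+ replicate 1. Without library B the Cxcl2 change was −4.66. Csf1, a macrophage growth factor gene, fell by 0.67 (adjusted p = 0.0232), but not without library A (adjusted p = 0.0939) or library C (adjusted p = 0.0681). Ccl6, a chemokine gene, rose by 1.08 (adjusted p = 0.00109), and the call was lost in barcodes with both proteases. Il13 and Ccl9 did not pass (−0.91, adjusted p = 0.106, and −0.05, adjusted p = 0.827).

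Histamine and lipid mediator genes did not move together. Ptgs2, the inducible cyclooxygenase gene (chr1:150100031-150108227, plus strand), had 257, 322, 203, 218 and 350.2 CPM at E16.5 and 5.41, 21.7, 1.48 and 0 CPM at P3. It fell by 5.41 ± 0.42 (adjusted p = 9.39e-07), and by 3.55 in the other barcodes. Without library B, its highest P3 library, the Ptgs2 change was −6.26. Hdc had 1097, 811, 514, 516 and 1051 CPM at E16.5 and 420.0, 856, 851 and 1022 CPM at P3, with overlapping groups (−0.14 ± 0.27, adjusted p = 0.733). Slc18a2, the vesicular monoamine transporter gene, had 52.9 to 112 CPM at E16.5 and 26.1 to 47.5 CPM at P3 and fell by 1.34 (adjusted p = 0.000578). Alox5ap, needed for leukotriene synthesis, had 598 to 831 CPM at E16.5 and 1050.2 to 1257 CPM at P3. It rose by 0.59 (adjusted p = 0.0116), a call lost under a gate of at least 4 markers and with only libraries C and D. Alox5 and Alox15 did not pass (0.00 and 0.08). In all, 2 of 9 tested genes of the list were higher and 2 lower at P3, a count near the 30.4% called among all genes, with a median of 0.00.

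Among surface protein genes, Cd63 (chr10:128900989-128912822, plus strand) had 907, 901, 1112, 888 and 913 CPM at E16.5 and 1860.0, 1718, 2081 and 2573 CPM at P3. Every P3 library was above every E16.5 library, and the rise was 1.00 ± 0.16 (adjusted p = 0.000417), beside 0.92 in the other barcodes. Cd69, an early activation antigen gene, had 758, 699, 1048, 776 and 941 CPM at E16.5 and 117, 143, 166 and 173 CPM at P3, without overlap, and fell by 2.63 ± 0.20 (adjusted p = 9.39e-07), beside −1.86 in the other barcodes. Cxcr4, the receptor of the marrow chemokine CXCL12, had 379, 372, 232, 297 and 372 CPM at E16.5 and 219, 54.3, 88.9 and 139 CPM at P3. It fell by 1.45 ± 0.29 (adjusted p = 0.00202), more than in the other barcodes (difference −0.72, adjusted p = 0.0304). Cd44 and Cd9, which encode adhesion and membrane scaffold proteins, fell by 0.87 and 0.78, while Cd200r3 did not pass (0.37, adjusted p = 0.104). Of 17 tested surface genes 2 were higher and 4 lower, a count near the 30.4% called among all genes, with a median of −0.12.

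Of 14 receptor genes for growth factors and cytokines 2 were higher and 3 lower, near the 15.1% and 15.2% of all genes. Crlf2, the TSLP receptor gene, had 36.7, 48.5, 64.6, 59.5 and 44.5 CPM at E16.5 and 111, 187, 179 and 204 CPM at P3 (1.60 ± 0.21, adjusted p = 7.22e-05). Il3ra, encoding the alpha chain of the IL-3 receptor, had 67.5, 74.1, 51.4, 61.0 and 61.7 CPM and then 106, 128, 179 and 143 CPM (1.01 ± 0.16, adjusted p = 0.000382). Both were higher in every P3 library, and the changes in the other barcodes were 1.49 and 1.40. Il1rl1, the IL-33 receptor gene, was lower in every P3 library, with 163, 222, 116, 167 and 255 CPM at E16.5 and 63.1, 60.8, 77.1 and 91.6 CPM at P3 (−1.47 ± 0.21, adjusted p = 0.000167), beside −0.99 in the other barcodes. Kit (chr5:75574916-75656722, plus strand) had 104, 93.1, 52.9, 75.9 and 64.6 CPM at E16.5 and 35.4, 49.96, 23.7 and 30.5 CPM at P3. It fell by 1.27 ± 0.23 (adjusted p = 0.00108), beside −0.36 in the other barcodes, a difference of −0.82 (adjusted p = 0.0288). Among barcodes with both proteases, where Kit was sparser and 32.5% of all genes tested were called, the change was −1.02 (adjusted p = 0.0382).

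**Figure D4:**
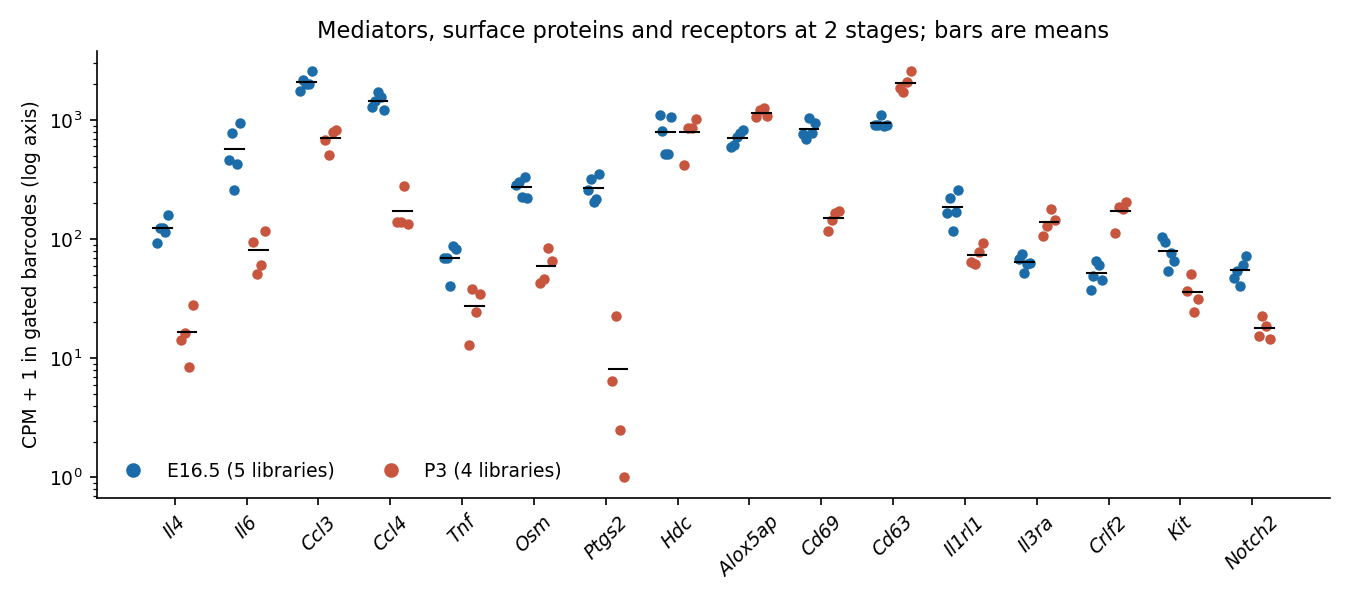
CPM + 1 of gated barcodes (log axis) for 16 named genes; each point is 1 library (5 at E16.5, 4 at P3) and bars are means. Il4, Ccl4, Cd69 and Ptgs2 are lower in all P3 libraries, Cd63, Il3ra and Crlf2 higher in all, and Hdc overlaps.

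Of 15 genes of IgE receptor signalling 4 were higher and 0 lower, namely Lat, Plcg2, Grb2 and Vav1, with a median of 0.17. That count is near the 30.4% called among all genes. Plcg2, a phospholipase gene, had 20.1 to 27.2 CPM at E16.5 and 35.4 to 52.1 CPM at P3 (0.73, adjusted p = 0.0104, and 0.0510 with only libraries C and D). Without library C the adjusted p was 0.0879 for Lat, 0.105 for Grb2 and 0.0896 for Vav1. Of 22 alternatives in all, Grb2 missed the threshold in 18 and Vav1 in 6. Fcer1g and the kinase gene Syk did not pass (0.41 and 0.16), although Syk rose in the other barcodes and the difference of −0.67 passed (adjusted p = 0.0442). Of 4 tested granule genes, the protease genes Ctsg (0.80, adjusted p = 0.0119) and Prss57 (1.35, adjusted p = 0.001) were higher at P3, beside 15.1% of all genes, and Srgn did not pass (0.01). Ctsg lost its call after thinning to 1000 UMIs (adjusted p = 0.254) and Prss57 with only libraries C and D (adjusted p = 0.0521). The gate markers themselves, given without a test, had 1773 to 2962 CPM at E16.5 and 2488 to 7535 CPM at P3 for Mcpt8 and 635 to 1785 CPM and then 2734 to 8155 CPM for Prss34. The stages overlapped for Mcpt8, as they did for Cpa3 (819 to 1669 CPM and 759 to 1846 CPM), Gata2 (331 to 556 CPM and 485 to 675 CPM) and Fcer1a (12.7 to 32.8 CPM and 6.79 to 51.6 CPM). They did not for Prss34 or for Ms4a2 (327 to 418 CPM and 468 to 685 CPM).

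Among transcription factor genes, 1 of 19 tested was higher and 6 were lower, beside 15.1% and 15.2% of all genes. Spi1, encoding the myeloid factor PU.1, had 76.9, 80.1, 99.9, 113 and 93.3 CPM at E16.5 and 226, 293, 252 and 193 CPM at P3 (1.29 ± 0.17, adjusted p = 7.71e-05), beside 1.75 in the other barcodes. Cebpb, encoding a factor of inflammatory and myeloid genes, had 598, 474, 542, 599 and 575 CPM at E16.5 and 203, 86.9, 71.1 and 71.3 CPM at P3, with library A above the other P3 libraries. It fell by 2.39 ± 0.28 (adjusted p = 3.37e-05), more than in the other barcodes (difference −0.88, adjusted p = 0.0107), and its change without library A was −2.97. Lmo2, a cofactor of blood progenitors, fell by 1.92 (adjusted p = 3.1e-05). Gata1 and Cebpa did not pass (−0.26 and 0.39). Stem and progenitor genes had 0 of 7 higher and 3 lower (Cd34, Kit and Myb), beside 15.2% of all genes. Cd34 and Myb lost their calls with at least 4 markers in the gate and with Gata2 left out of it, Cd34 also with only libraries C and D, and Myb among barcodes with both proteases. Cell cycle genes had 2 of 12 higher in the S phase list and 2 of 12 lower in the G2/M list, near the 15.1% and 15.2% of all genes, and Mki67 did not pass (−0.27, adjusted p = 0.254).

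Notch pathway genes were sparse in the gate, with 4 of 15 tested. Notch2, a receptor gene (chr3:98013527-98150361, plus strand), had 46.2, 53.0, 39.7, 60.2 and 71.8 CPM at E16.5 and 14.4, 21.7, 17.8 and 13.6 CPM at P3. All E16.5 libraries were higher, and the change was −1.79 ± 0.24 (adjusted p = 8.87e-05), beside −1.10 in the other barcodes. Maml1, a coactivator gene, fell by 1.96 (adjusted p = 0.00285), and by 2.68 without library A. Rbpj, the pathway's DNA-binding factor, did not pass (0.01), and Notch1 passed narrowly (−0.58, adjusted p = 0.0467) but not when any of libraries A to D was left out. Jag1 itself had 0 to 1.42 CPM in the gate.

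Genes that respond to tissue handling and activation moved with the mediators. Of 11 tested immediate early genes 7 were lower at P3 and 0 higher, beside 15.2% and 15.1% of all genes, including Zfp36 (−3.41), Nr4a1 (−3.20), Dusp1 (−2.33) and Fos (−1.65). Their summed level was 4845 to 5965 CPM in the gate at E16.5 and 1881 to 3084 CPM at P3. The summed cytokine list was 4788 to 6173 CPM and 1718 to 2340 CPM. In the other barcodes 7 of 11 were lower too, beside 3835 of 14493 genes in that fit, and Junb and Ier3 fell further in the gate than outside (differences −0.89, adjusted p = 0.00774, and −0.98, adjusted p = 0.038). The part of digestion in the mediator values was not tested.

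RNA of some other cell types also moved with stage. Summed erythroid markers were 92843 to 168917 CPM in the gate at E16.5 and 35894 to 47283 CPM at P3, below the other barcodes of every library. Of 12 erythroid markers 10 were lower at P3, beside 15.2% of all genes. Neutrophil markers overlapped between the stages, with 5071 to 18378 CPM and 14014 to 18960 CPM, and 2 of 10 (Ctsg and Ltf) were higher, near the 15.1% of all genes. Ctsg is also the granule gene counted above, and Ltf missed the threshold in 6 of 22 alternatives. Monocyte and macrophage markers had 93.5 to 338 CPM and 241 to 836 CPM. Of the latter 5 of 7 were higher, beside 15.1% of all genes, but 1 was higher and 1 lower among barcodes with both proteases, and C1qa, C1qb, C1qc and Ctss lost their call with at least 4 markers in the gate. Hepatocyte markers reached 9803 CPM in the shared library and 2505 CPM in library A. B cell markers were 29.2 to 306 CPM and 136 to 318 CPM, and 2 of 3 were higher, beside 15.1% of all genes. Of these, Cd79a lost its call without Scrublet doublets, with DESeq2 and with only libraries C and D. Of 5 interferon response genes 3 were higher, beside 15.1% of all genes. Among them, Ifitm3 had 44.98 to 86.1 CPM at E16.5 and 212 to 406 CPM at P3 (2.30 ± 0.21, adjusted p = 2.49e-06). In the other barcodes 9 of 12 erythroid markers were lower and 1 higher. Higher there were 6 of 10 neutrophil, 6 of 7 monocyte and macrophage and 3 of 5 interferon genes, with 0 lower. Of 3 B cell markers 2 were higher there and 1 lower. That fit called 3835 of 14493 genes lower and 4014 higher. The part of these transcripts in the changes above was not tested.

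Over all genes, 12 in each direction were named by size of change among those with a mean of at least 20 CPM. The change differed from that of the other barcodes, by the test of the difference, for 4 of them: Nlrp3, the inflammasome sensor gene, Tnfaip3, which encodes the NF-kB inhibitor A20, Cpne2 and Igkc. Nlrp3 (chr11:59541568-59566956, plus strand) had 63.9, 89.6, 47.0, 81.4 and 89.0 CPM at E16.5 and 9.61, 8.69, 2.96 and 3.39 CPM at P3, and fell by 3.44 (adjusted p = 2.49e-06). In the other barcodes its change was −0.18, and the difference of −3.22 passed (adjusted p = 0.000226). Tnfaip3 had 333, 405, 192, 236 and 291 CPM and then 22.2, 30.4, 22.2 and 44.1 CPM, with a difference of −1.48 (adjusted p = 0.00235). Cpne2, a copine gene, rose further than outside the gate (5.92 to 21.9 CPM and then 52.1 to 84.1 CPM, difference 1.35, adjusted p = 0.0155), as did the immunoglobulin gene Igkc (0.500 to 8.61 CPM and then 84.5 to 274 CPM, difference 1.26, adjusted p = 0.0419). Among the genes named this way, Atp6v0c had the largest rise, 7.25, with 7.997 in the other barcodes. It had only 1, 4, 1, 3 and 3 UMIs in the E16.5 gates, against 605, 180, 270 and 96 in libraries A to D.

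Among 186 list genes with a value in both fits, 20 differed in change between gated and other barcodes. Of these, 6 were upward and 14 downward, beside 3.33% upward and 1.88% downward among all genes, so the upward count is near that of all genes. Epx had the largest upward difference among them (4.80, adjusted p = 0.00354), with library B at 0. Its change within the gate was 4.01 (adjusted p = 0.00274), and 3.37 without library D. The complement receptor gene C3ar1 (−0.72 in the gate and 0.93 outside, difference −1.54, adjusted p = 0.00599) and the integrin gene Itgb7 (0.41 and 1.78, difference −1.34, adjusted p = 0.00924) did not pass the stage test within the gate.

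**Figure D5:**
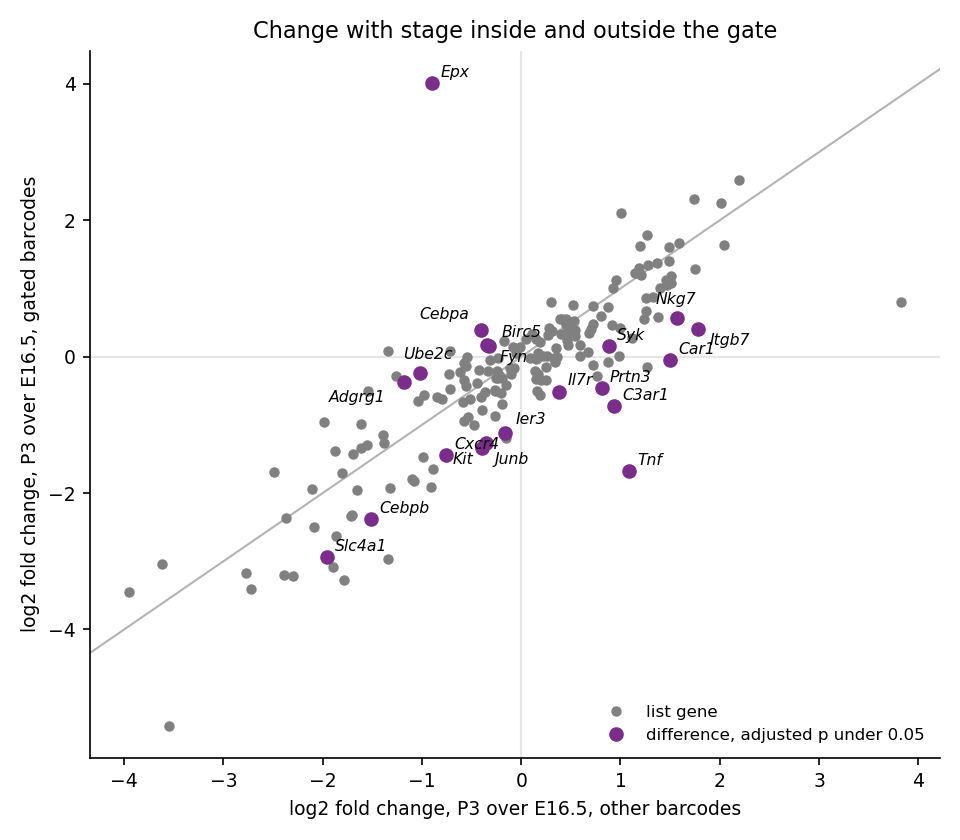
Log2 fold change of P3 over E16.5 in gated barcodes (y axis) against the other passing barcodes (x axis) for 186 list genes; the diagonal marks equal change and purple points are the 20 genes whose difference passed. Tnf fell in the gate and rose outside it, and Epx is far above the diagonal.

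The genotype comparison asked whether homozygous carriers differed at E16.5, where 2 Jag1Ndr/Ndr libraries were set against 3 others (Jag1+/+ replicate 1, the shared library and Jag1Ndr/+ replicate 1). Nodder changes the JAG1 protein and not, by itself, its transcript, so the Jag1 level does not check the labels. With edgeR's quasi-likelihood test 0 of 7542 genes were called (0%), 124 had an unadjusted p under 0.05, and DESeq2 also called 0. The other barcodes had 0 of 16224 called. On simulated counts of this design, edgeR recovered 2% of genes changed 2-fold, 85.5% of those changed 4-fold and 93% of those changed 8-fold, so most 2-fold changes would be missed in this design.

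Single values show the spread. Notch1 had 39.8, 54.4 and 29.1 CPM in the non-homozygous libraries and 43.3 and 51.0 CPM in the homozygous ones (log2 difference 0.14 ± 0.28, SE). Notch2 had 45.6, 52.4 and 39.2 CPM against 59.5 and 70.8 CPM, groups that did not overlap, with a difference of 0.47 ± 0.24 (edgeR, adjusted p = 1). Groups did not overlap for 13% of all genes tested. Ear1, an eosinophil ribonuclease gene, had 8.19, 12.8 and 1.45 CPM against 42.5 and 36.8 CPM (2.17, edgeR, adjusted p = 1). Differences were near 0 for Hdc (−0.02) and Cd200r3 (0.00), and were 0.25 for Il4 and −0.26 for Kit. Of the 6 gate markers, given without a test, groups overlapped for 5, including Mcpt8 (1773, 2962 and 1889 CPM against 1792 and 2548 CPM). They stood apart for Prss34, with 1045, 1525 and 1785 CPM against 635 and 902 CPM.

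Setting the 2 homozygous libraries against Jag1+/+ replicate 1 alone, with Jag1Ndr/+ replicate 1 as a group of its own and the shared library left out, left 1 residual degree of freedom. The lone wild-type library is assumed to vary like the homozygous pair. edgeR called 75 of 7820 genes (0.959%), 66 higher (0.844%) and 9 lower (0.115%), and groups did not overlap for 64.2% of genes. The count fell to 4 without Gata2 in the gate and to 0 with at most 10% mitochondrial UMIs. The called list genes were mainly markers of other cells: 6 of 10 neutrophil, 7 of 8 hepatocyte and 3 of 5 B cell markers and 4 of 4 MHC class II genes were higher and 4 of 8 macrophage markers lower. The summed hepatocyte, B cell and MHC class II markers were high in Jag1Ndr/Ndr replicate 1 alone of the 4 libraries (2768, 306 and 307 CPM). They had 929, 62.3 and 9.91 CPM in Jag1Ndr/Ndr replicate 2, 606, 29.2 and 17.5 CPM in Jag1+/+ replicate 1 and 858, 30.5 and 24.7 CPM in Jag1Ndr/+ replicate 1. S100a9, a neutrophil gene, had 124 CPM in Jag1+/+ replicate 1, 3034 CPM in Jag1Ndr/+ replicate 1, and 2729 and 5808 CPM in the homozygous libraries. The heterozygous library was thus as high as the homozygous ones. The cytokine gene Cxcl2, the granulocyte factor gene Cebpe, the tryptase gene Tpsb2 and the eosinophil gene Ear1 were also called. The Tpsb2 UMIs of the homozygous libraries, 102 in all, came from the single mast cell gene barcode of Jag1Ndr/Ndr replicate 2. Each of the 19 genes named by rule in this comparison missed the threshold in at least 1 alternative.

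At P3, library C (homozygous label only) and library D (heterozygous label only) gave 1 library per genotype and no test. Of 2822 genes with at least 50 UMIs in the pair, 119 (4.22%) differed at least 2-fold, 74 higher and 45 lower in library C. The core genes were close: Hdc had 850 and 1021 CPM in libraries C and D, Ccl3 796 and 831 CPM, and Cd200r3 516 and 533 CPM. The gate markers did not go one way: Mcpt8 had 4424 CPM in library C against 7535 CPM in library D and Cpa3 976 CPM against 1846 CPM, while Prss34 had 8155 CPM against 6042 CPM. Fcer1a had 41.5 CPM against 6.79 CPM, but on 28 and 2 UMIs, under the minimum of 50 used here. Of 127 list genes, 12 were past 2-fold higher in library C. Most of them mark other cells or an interferon response (Alas2, Hba-a2, C1qa, C1qc, Elane, Prtn3, Dcn, Isg15 and Ifi27l2a), and the others were Ccl4 (277 CPM against 132 CPM), Sox4 (105 CPM against 37.3 CPM) and Gata1 (65.2 CPM against 30.5 CPM). There were 4 past it on the lower side: the chemokine receptor gene Ccr2 (57.8 CPM against 153 CPM), the IL-18 receptor gene Il18r1 (40.0 CPM against 98.4 CPM), Epx and Prg3. Exact 95% Poisson intervals, which cover counting error only, were 239 to 320 CPM and 94.1 to 181 CPM for Ccl4. They overlapped for Gata1 (47.4 to 87.5 CPM and 14.0 to 58.0 CPM), which had 9 UMIs in library D. Hba-a2, an alpha-globin gene, had 5266 CPM against 322 CPM in the gate and 23974 CPM against 1675 CPM outside it. Its near-identical copy Hba-a1 did not go that way (9056 CPM against 10554 CPM in the gate), so the split of reads between the copies is uncertain.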

How the data were processed

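Raw UMI counts per gene and barcode were deposited by the authors as 10x matrices, with lists of genes and barcodes that are not measurements. Cell Ranger 2.1.1, R 4.1.2 and Seurat with mm10 appear in the submitters' processing notes. The deposited matrix headers name 10x software 3.1.0 at E16.5 and 3.0.2 at P3, and the counting options are not given in the sources used here. Doublets were not removed, and the authors' own cell types were not used here.

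Gated counts were summed per library and tested with edgeR 4.0.16 in R 4.3.3 (quasi-likelihood, TMM, filterByExpr, Benjamini-Hochberg adjustment at 0.05). DESeq2 1.42.0, other gates, filters, thinned barcodes and leaving out each library were alternatives, and Scrublet ran in scanpy 1.11.5. The fits were tested on simulated counts with 200 changed genes. Of the P3 sample labelled Jag1Ndr/+ replicate 2 every barcode lay in library B, and Jag1Ndr/Ndr replicate 2 shared most barcodes with libraries A and B, so neither was used. Members and gene lists were chosen with earlier results of these data known. Genes named beyond the lists were the 12 with the largest change in each direction among those called, not overlapping between groups and with a mean of at least 20 CPM, and the 25 with the highest gated to other ratio of CPM + 20. Gate markers, globins, mitochondrial and sex-linked genes were left out.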

Additional observations from a re-analysis of the deposited data

Results flagged for a closer look

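In groups of 4 to 5 libraries, 13 of 116 values stood apart from the rest of their stage by Dixon's criterion, which chance meets in about 1 of 20 groups. Summed CPM of lists in gated barcodes did so at E16.5 for eosinophil markers in Jag1Ndr/+ replicate 1 (159.7), dendritic cell markers and MHC class II genes in Jag1Ndr/Ndr replicate 1 (347 and 307), and hepatocyte and mesenchymal markers in the shared library (9803 and 30.1). At P3 they were mast cell markers in library B (1157), histamine and lipid mediators, hepatocyte markers and immediate early genes in library A (1838, 2505 and 1881), and stem and progenitor markers in library D (332). Single genes were Ptp4a1 (8.69 CPM) and Fam173a (13.0 CPM) in library B and Slc25a37 (42.1 CPM) in library A. The mast cell value of library B rests largely on the barcode with 338 Cma1 and 158 Tpsb2 UMIs.

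The change from E16.5 to P3 differed between gated and other barcodes in 4 of the genes named by rule. On the log2 scale the differences were 1.26 for Igkc, 1.35 for Cpne2, −1.48 for Tnfaip3 and −3.22 for Nlrp3 (edgeR quasi-likelihood test, adjusted p of 0.0419, 0.0155, 0.00235 and 0.000226).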

How the results depend on the processing

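The 99 stage genes followed here were chosen by their call in the main fit. Each went through the 15 to 23 alternatives in which it was tested. In all of those 62 kept their direction and call, while 37 missed the threshold in at least 1 and 0 reversed. The alternatives reuse the libraries of the main fit, so these counts are a description. The stage count of 2064 became 111 of 388 with barcodes thinned to 1000 UMIs, where few genes could be tested, and 1320 with only libraries C and D at P3. It was 1524 to 2094 when 1 library was left out, 1760 with DESeq2, and 1416 without both the shared library and library A, an alternative added after seeing the data. Scaling by library size alone raised the share of higher calls from 49.8% to 61.1% and moved the median of all genes by 0.0926. For homozygous against other livers at E16.5 the count of 0 became 43 without a filter on low counts and 0 to 2 when 1 library was left out. The log2 difference in share there ran from −0.82 to 0.53 when 1 library was left out, and turned upward without the shared library (0.53) and without Jag1Ndr/Ndr replicate 2 (0.47). For homozygous against wild type the count of 75 became 23 with at least 4 markers, 4 without Gata2 in the gate, 0 with at most 10% mitochondrial UMIs, 11 without Scrublet doublets, 7 after thinning, 12 with DESeq2, 0 without a filter and 36 with at least 20 UMIs. The cause was not tested. Replicate numbers do not pair the libraries: correlations of same-numbered libraries were −0.14, 0.13 and −0.03 for the genotypes and −0.10 to 0.11 for the stages. With the replicate block the counts were 0 and 1970.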
